A study of Mus musculus with 16 samples.

Results

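The serotonin receptor family was described through 10 genes, Htr1a, Htr1b, Htr1f, Htr2a, Htr2c, Htr3a, Htr4, Htr5a, Htr6 and Htr7, which are 10 of the 39179 gene rows in each count file. They were chosen by gene name and not by any measured value, and each name stood on 1 row. RNA of neurons from adult TERT-AD mice, strain B6.129S6.SvEvTac, was sequenced in 4 groups of 4 libraries. The groups were hippocampal neurons after tamoxifen (hippocampal TAM), hippocampal neurons after vehicle (hippocampal CTL), cortical neurons after tamoxifen (cortical TAM) and cortical neurons after vehicle (cortical CTL). All 4 groups are of the same TERT-AD line, in which, by the title of the study, Tert is to be activated, so there was no group without the line's alleles. The sources used here give neither the promoter that drives the activation, nor the mice's age, the way neurons were isolated or which libraries came from 1 mouse.

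Serotonin reaches the cortex and hippocampus along axons of the raphe nuclei of the brainstem, and its effect on a neuron depends on which receptors that neuron makes. Receptors of the Htr1 and Htr5 classes couple to Gi proteins and lower cyclic AMP, those of the Htr2 class couple to Gq and phospholipase C, and those encoded by Htr4, Htr6 and Htr7 couple to Gs and raise cyclic AMP. Htr3a encodes a subunit of a cation channel opened by serotonin, found in the forebrain mainly in a class of inhibitory interneurons. Htr2c is expressed in neurons and, far more strongly, in the epithelium of the choroid plexus, which secretes cerebrospinal fluid.

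In each group, library 1 resembled library 2, and library 3 resembled library 4, more than the remaining pairs did. Hippocampal TAM libraries 1 and 2 were the least alike of these, with squared deviations of the most counted genes averaging 283 times counting error, against 6.55 to 21.0 in the other 7 pairs and 397 to 755 in the remaining pairs of that group. Each such pair was summed into samples A and B of its group, which gave 8 samples with 83527470 to 108293362 counts in genes. Levels below are CPM, counts scaled to a sum of 1000000 over a sample's gene rows. Markers of neurons were present in every sample, but so were those of other cells. A list of 5 general neuron genes summed to 1785 to 3911 CPM, 6 oligodendrocyte genes to 23818 to 72329 CPM and 6 microglia genes to 616 to 2009 CPM. Cortical TAM sample B stood apart, where the neuron list reached 3911 CPM, against 1808 to 2200 CPM in the 3 remaining cortical samples, the oligodendrocyte list at 23818 CPM against 52703 to 67081 CPM, and 20.4% of its gene counts from mitochondrial genes against 29.9 to 31.5%. Hippocampal TAM sample A stood apart in choroid plexus genes, which are given with Htr2c. In bulk RNA, fewer cells of a type and less RNA per cell cannot be told apart. Tert itself, for which no source used here tells whether transgene transcripts are counted, stood at 1.04 and 2.16 CPM in hippocampal TAM samples against 1.47 and 3.89 CPM in hippocampal CTL samples, and at 1.04 and 2.34 CPM in cortical TAM samples against 0.473 and 1.11 CPM in cortical CTL samples. It passed the test in neither region (edgeR adjusted p = 1 in hippocampus and 0.834 in cortex).

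The start regions of 3 receptor genes are shown because the results turn on these genes: Htr7 gave the receptors' smallest p between the regions, Htr1a the smallest p in the opposite direction, and Htr2c varied most between samples. Each runs from 250 bases before to 50 bases after the start that RefSeq gives on GRCm38.p6, read 5′ to 3′ on the gene's strand, with every CG pair in capitals. The Htr7 region is chr19:36057311-36057610 on the minus strand, that of Htr1a is chr13:105443443-105443742 on the plus strand, and that of Htr2c is chrX:146962263-146962562 on the plus strand.
Htr7: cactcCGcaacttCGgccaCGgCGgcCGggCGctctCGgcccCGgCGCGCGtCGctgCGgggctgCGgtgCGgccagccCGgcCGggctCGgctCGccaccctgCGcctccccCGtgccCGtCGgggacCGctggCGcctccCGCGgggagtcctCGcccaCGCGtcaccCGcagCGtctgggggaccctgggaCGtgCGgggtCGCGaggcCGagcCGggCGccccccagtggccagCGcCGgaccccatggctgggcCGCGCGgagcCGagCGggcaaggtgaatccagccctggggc
Htr1a: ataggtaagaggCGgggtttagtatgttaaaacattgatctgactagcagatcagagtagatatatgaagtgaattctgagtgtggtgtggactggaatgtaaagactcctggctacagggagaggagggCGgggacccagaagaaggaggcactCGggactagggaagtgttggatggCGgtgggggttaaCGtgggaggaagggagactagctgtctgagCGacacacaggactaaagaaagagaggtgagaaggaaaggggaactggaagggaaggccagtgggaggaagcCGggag
Htr2c: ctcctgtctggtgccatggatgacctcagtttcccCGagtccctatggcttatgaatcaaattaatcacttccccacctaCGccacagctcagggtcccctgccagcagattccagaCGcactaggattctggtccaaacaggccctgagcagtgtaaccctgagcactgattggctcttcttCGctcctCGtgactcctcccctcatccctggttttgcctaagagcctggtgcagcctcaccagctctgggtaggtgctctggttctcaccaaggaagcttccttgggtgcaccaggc
The Htr7 region is 81% G and C and holds 46 CG pairs, and 1.65% of the 32851 mouse start regions of the same length hold at least as many. The Htr1a region holds 7 CG pairs, which is the median of all start regions, and the Htr2c region holds 5. These counts describe the letters only, and no methylation was measured here.

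All 10 receptor genes were detected in all 16 libraries, at low levels apart from Htr2c. Per kilobase of exon, which allows levels of different genes to be compared, Htr2c had the highest group mean in 3 of the 4 groups, but in both samples of a group only in hippocampal CTL. It had 0.490 CPM per kb in hippocampal TAM sample A and 0.353 in cortical TAM sample B, where 5 and 7 of the 9 other receptors stood higher. In hippocampal TAM samples the mean order was Htr2c (5.47 CPM per kb), Htr1a (1.62), Htr7 (1.60), Htr3a (1.26), Htr6 (1.01), Htr1b (0.387), Htr5a (0.245), Htr2a (0.212), Htr4 (0.0980) and Htr1f (0.0224). In hippocampal CTL samples the levels were 14.8 CPM per kb for Htr2c, 1.57 for Htr1a, 1.29 for Htr3a, 1.19 for Htr7, 0.899 for Htr6, 0.227 for Htr1b, 0.202 for Htr5a, 0.115 for Htr2a, 0.0574 for Htr4 and 0.0356 for Htr1f. In both hippocampal groups the libraries of Htr1b, Htr5a and Htr2a overlapped from each gene to the next, and all 3 genes lay below every library of Htr6.

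Cortical samples had another order, in which Htr7 and Htr6 stood above Htr1a. In cortical TAM samples Htr2c had 2.85 CPM per kb, Htr7 1.87, Htr6 1.40, Htr1a 1.06, Htr3a 0.870, Htr1b 0.682, Htr5a 0.658, Htr2a 0.584, Htr1f 0.199 and Htr4 0.0312, and the libraries of every neighbouring pair in this order overlapped. In cortical CTL samples Htr7 led with 1.79 CPM per kb, above every library of the next gene, followed by Htr6 (1.00), Htr2c (0.733), Htr3a (0.644), Htr1a (0.507), Htr1b (0.455), Htr2a (0.281), Htr5a (0.259), Htr1f (0.0788) and Htr4 (0.0141). The genes from Htr6 to Htr1b overlapped with their neighbours in that order, as did Htr2a and Htr5a.

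**Figure D1:**
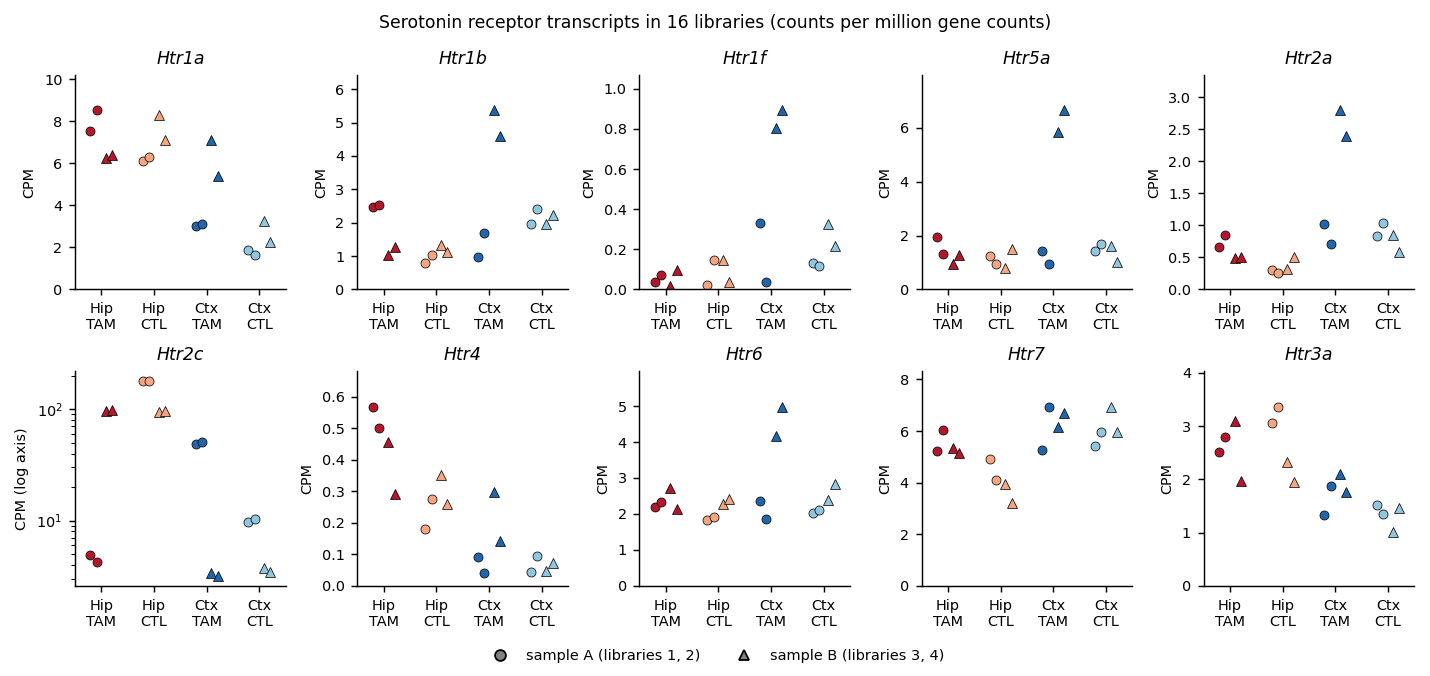
CPM of each receptor gene in the 16 libraries, with 1 panel per gene and the 4 groups along the horizontal axis (Hip, hippocampal; Ctx, cortical). Circles are the libraries of sample A and triangles those of sample B, and the axis of Htr2c is logarithmic. Libraries of the same sample lie close together for Htr2c and far apart in some samples for Htr1f, which has few counts, and the triangles of cortical TAM lie highest for Htr1b, Htr1f, Htr5a, Htr2a and Htr6.

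Among the Gi-coupled receptors, Htr1a (chr13:105443693-105448133 in mm10, plus strand, 1 exon), the receptor on raphe neurons themselves and on hippocampal pyramidal cells, had the highest group mean per kilobase in all 4 groups, though its libraries overlapped those of Htr1b in both cortical groups. It had 8.05 and 6.33 CPM in hippocampal TAM samples A and B and 6.21 and 7.71 CPM in hippocampal CTL samples, against 3.08 and 6.37 CPM in cortical TAM samples and 1.74 and 2.77 CPM in cortical CTL samples. Both hippocampal CTL samples thus stood above both cortical CTL samples, as for 62.1% of all tested genes. Both cortical TAM samples stood above both cortical CTL samples, as for 20.8%, while cortical TAM sample B reached the hippocampal range. Htr1b (chr9:81628291-81633828, minus strand), which sits on axon terminals and limits transmitter release, had 2.50 and 1.15 CPM in hippocampal TAM and 0.917 and 1.23 CPM in hippocampal CTL samples. In cortex it had 1.40 and 5.04 CPM in TAM and 2.21 and 2.09 CPM in CTL samples, so that the TAM samples lay on both sides of the CTL samples. Exons of Htr1b overlap those of D430036J16Rik on the opposite strand in the GENCODE annotation. No source used here states the strand setting of the counting, so the effect of this overlap on the Htr1b counts is not known.

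Htr5a (chr5:27841947-27855086, plus strand) had 1.64 and 1.10 CPM in hippocampal TAM, 1.09 and 1.16 CPM in hippocampal CTL, 1.14 and 6.19 CPM in cortical TAM and 1.56 and 1.32 CPM in cortical CTL samples. Of these, 7 samples lay between 1.09 and 1.64 CPM, and cortical TAM sample B stood far above them. Htr1f (chr16:64924729-65105784, minus strand), the target of a class of migraine drugs, was close to the limit of detection in hippocampus. Its counts were 6 and 6 in hippocampal TAM samples and 9 and 10 in hippocampal CTL samples, against 13 and 84 in cortical TAM and 12 and 23 in cortical CTL samples. On the CPM scale these are 0.0571 and 0.0554 in hippocampal TAM, 0.0860 and 0.0924 in hippocampal CTL, 0.156 and 0.842 in cortical TAM and 0.123 and 0.272 in cortical CTL samples. All 4 hippocampal samples thus lay below all 4 cortical ones, a separation for which the share of all genes was not counted. Single libraries overlapped, with 0.0398 CPM in cortical TAM library 2 against 0.146 and 0.147 CPM in hippocampal CTL libraries 2 and 3. Htr1f passed the filter on low counts through its 4 cortical samples and none of the hippocampal ones.

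Of the Gq-coupled receptors, Htr2a (chr14:74640840-74706859, plus strand), the receptor through which classical hallucinogens act and one found on cortical pyramidal cells, had 0.761 and 0.499 CPM in hippocampal TAM and 0.277 and 0.406 CPM in hippocampal CTL samples. Cortical TAM samples had 0.838 and 2.63 CPM and cortical CTL samples 0.945 and 0.721 CPM. Both hippocampal TAM samples were above both hippocampal CTL samples, as for 14.6% of all tested genes. Every cortical CTL sample was above every hippocampal CTL sample, as for 13%. In cortex the TAM and CTL samples overlapped, with TAM sample B above the other 3 samples, as it was for Htr5a and Htr1b.

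Htr2c (chrX:146962513-147197277, plus strand) had 4.57 and 97.3 CPM in hippocampal TAM, 179 and 96.0 CPM in hippocampal CTL, 49.8 and 3.29 CPM in cortical TAM and 10.1 and 3.59 CPM in cortical CTL samples. Samples A and B of 1 group were thus far apart, while the libraries within a sample lay close together. Ttr, the transthyretin gene and the most abundant transcript of that tissue, had 37.8 and 7488 CPM in hippocampal TAM, 15953 and 7345 CPM in hippocampal CTL, 4701 and 3.18 CPM in cortical TAM and 876 and 3.88 CPM in cortical CTL samples, and the same samples were high in Ttr and in Htr2c. In the 5 samples with Ttr at 876 CPM or more, Htr2c had 10.6 to 13.1 counts per 1000 Ttr counts, although Htr2c itself ran from 10.1 to 179 CPM among them. In the 3 others it had 121 (hippocampal TAM A), 1035 (cortical TAM B) and 927 (cortical CTL B) counts per 1000 Ttr counts, and there Htr2c stood at 4.57, 3.29 and 3.59 CPM.

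The whole choroid plexus list of 10 genes, all in the files, summed to 48.3 and 8380 CPM in hippocampal TAM, 17647 and 8334 CPM in hippocampal CTL, 5171 and 6.08 CPM in cortical TAM and 960 and 6.44 CPM in cortical CTL samples, with 1 of the 10 at 0 in cortical CTL sample B and none at 0 elsewhere. All 10 had a positive log2 fold change in cortex (TAM over CTL), and 0 of 10 in hippocampus, with medians of 2.51 and -1.53, the signs that Htr2c had. The part of these cells in the level of Htr2c was not tested beyond these values. Over the 8 samples the genes whose centred log2 levels stayed closest to those of Htr2c were Ace (root mean square difference 0.11), Slc16a8 (0.17) and Steap1 (0.19), where Htr2c itself had a standard deviation of 2.28 on that scale.

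**Figure D2:**
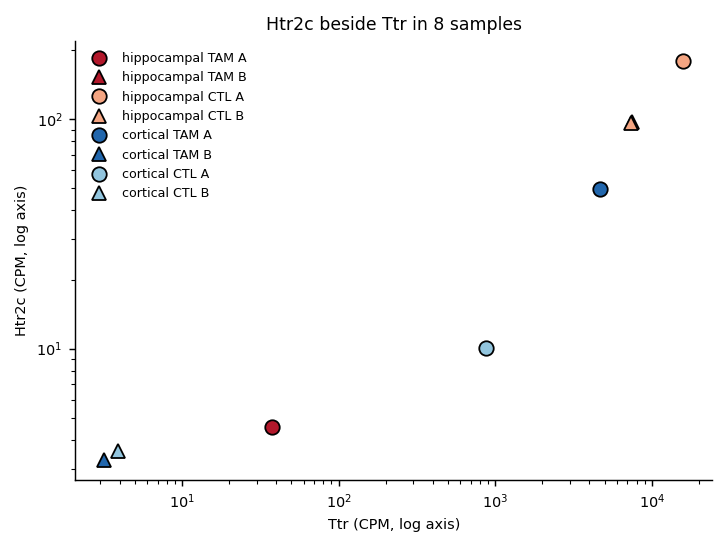
Htr2c against Ttr in the 8 samples, both in CPM on logarithmic axes, with 1 point per sample and no error bars. The 5 samples with at least 876 CPM of Ttr rise along a line of constant ratio, and the 3 with 3.18 to 37.8 CPM of Ttr lie at 3.29 to 4.57 CPM of Htr2c. The points of hippocampal TAM B and hippocampal CTL B nearly coincide.

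Of the Gs-coupled receptors, Htr7 (chr19:35958734-36057507, minus strand), which is known to raise excitability of pyramidal and thalamic neurons, varied little between samples A and B and had 5.65 and 5.24 CPM in hippocampal TAM, 4.50 and 3.59 CPM in hippocampal CTL, 6.27 and 6.38 CPM in cortical TAM and 5.71 and 6.45 CPM in cortical CTL samples. Its 4 hippocampal CTL libraries spanned 3.22 to 4.92 CPM, below all 4 cortical CTL libraries at 5.43 to 6.93 CPM and below all 4 hippocampal TAM libraries at 5.13 to 6.05 CPM. These are libraries of 2 samples per group, not 4 replicates. Both hippocampal CTL samples stood below both cortical CTL samples for 13% of all tested genes. Both hippocampal TAM samples stood above both hippocampal CTL samples for 14.6%. Htr6 (chr4:139061108-139075570, minus strand), a receptor of neuronal cilia, had 2.26 and 2.44 CPM in hippocampal TAM, 1.86 and 2.34 CPM in hippocampal CTL, 2.05 and 4.51 CPM in cortical TAM and 2.08 and 2.60 CPM in cortical CTL samples. Cortical TAM sample B was the highest of the 8, and the others lay between 1.86 and 2.60 CPM.

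Htr4 (chr18:62324204-62467802, plus strand), a receptor of hippocampal pyramidal cells, had 56 and 41 counts in hippocampal TAM, 24 and 33 in hippocampal CTL, 5 and 23 in cortical TAM and 7 and 5 in cortical CTL samples. In CPM, hippocampal TAM samples had 0.533 and 0.379, hippocampal CTL samples 0.229 and 0.305, cortical TAM samples 0.0599 and 0.231 and cortical CTL samples 0.0719 and 0.0591. Both hippocampal TAM samples lay above both hippocampal CTL samples, as for 14.6% of all tested genes. Both hippocampal CTL samples lay above both cortical CTL samples, as for 62.1%. Htr3a (chr9:48899214-48911099, minus strand), the channel subunit, had 2.65 and 2.57 CPM in hippocampal TAM, 3.22 and 2.13 CPM in hippocampal CTL, 1.65 and 1.95 CPM in cortical TAM and 1.43 and 1.24 CPM in cortical CTL samples. In CPM, every hippocampal sample thus stood above every cortical one. With TMM scaling, used in the tests below, hippocampal CTL sample B (1.97) lay just below cortical TAM sample A (2.00). The share of all genes separated in this way was not counted. CPM leans towards hippocampus: between the controls, 62.1% of tested genes had both hippocampal samples above both cortical ones. A list of 8 genes of the interneuron class that makes Htr3a summed to 130 and 98.3 CPM in hippocampal TAM, 109 and 104 CPM in hippocampal CTL, 107 and 249 CPM in cortical TAM and 105 and 100.3 CPM in cortical CTL samples, with no marker at 0. The sum did not separate the regions as Htr3a did in CPM, but its genes went opposite ways. Between the controls, hippocampal over cortical, 5 of 8 log2 fold changes were positive, while Npy had -1.75 and Vip -1.08. Prox1 and Calb2 of this list were also used as markers of hippocampal granule cells and of thalamus. The sum thus does not measure this class alone.

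Between the control groups of the 2 regions, Htr7 was the 1 receptor of 10 that passed the test, lower in hippocampal CTL than in cortical CTL samples. By edgeR's quasi-likelihood test with Benjamini-Hochberg adjustment over 18074 genes, its log2 fold change was -0.98 (SE 0.20, 95% interval -1.45 to -0.51, n = 2 samples per group, adjusted p = 0.041). Of all tested genes, 6.19% were called in this contrast and 3.48% were called lower, so 1 receptor of 10 is close to the background. The call ended without cortical CTL sample A (adjusted p = 0.198) or B (0.289), without hippocampal CTL sample A (0.140) or B (0.201) and without hippocampal TAM sample A (0.0685) or B (0.0737), at log2 fold changes of -1.10 to -0.86. It also depends on scaling: on the sum of gene rows, which moves the median gene of this contrast by 0.38, the Htr7 value was -0.59 (adjusted p = 0.115), and relative to that median it was about as large as with TMM. The general neuron list summed to 1815 and 1785 CPM in hippocampal CTL against 2022 and 2200 CPM in cortical CTL samples with no marker at 0. In the same fit as Htr7, its 5 genes had a median log2 fold change of -0.80, with 0 positive. The 6 inhibitory neuron genes had a median of -1.14 with 0 positive, and the 6 excitatory ones -0.26 with 2 positive. For all genes the median was 0.0016. The part of these neuron differences in the Htr7 value was not tested.

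Htr1a ran the other way and just missed the threshold, at 1.25 on the log2 scale (SE 0.31, 95% interval 0.51 to 1.98, adjusted p = 0.0607). It passed on the sum of gene rows (1.63, adjusted p = 0.0359), where the shift of the median makes up the gain, as well as without either cortical TAM sample (0.0211 without A and 0.0219 without B) and in DESeq2 (0.00327). Htr2a had -1.66 (SE 0.49, adjusted p = 0.0857) and Htr1b -1.38 (SE 0.53, adjusted p = 0.148), and both also passed in DESeq2 (0.0187 and 0.0463), in which 4 of 10 receptors were called with Htr7 against 18% of the genes given an adjusted p. Without cortical TAM sample A or B edgeR called both as well, Htr2a at 0.0232 and 0.0265 and Htr1b at 0.0397 and 0.0426, in fits that called 4 receptors and 20.7% of all genes each. The other values did not pass: Htr1f -1.51 (SE 0.76), Htr5a -0.74 (SE 0.58), Htr6 -0.54 (SE 0.30), Htr4 1.63 (SE 0.61), Htr3a 0.61 (SE 0.26) and Htr2c 3.95 (SE 1.99), with adjusted p of 0.138 to 0.447. An unadjusted p under 0.05 was found for 6 of the 10 receptors, against 27.6% of all genes. These 6 include Htr4, which entered the test through hippocampus, where it is high, and so is no support for a difference. With other settings the receptors called between the controls numbered 1 with RLE scaling (6.22% of all genes called), 1 on the sum of gene rows (11.4%), 2 without the filter on low counts (4.97%), 3 in limma voom with correlated pairs (20.4%), 4 with both samples that stand apart left out (25.8%), 2 with a crossed block (11.3%) and 8 with the 16 libraries taken as separate samples (41.7%). The last of these called 5 receptors between the tamoxifen groups, against 32.9% of all genes.

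In CPM, both hippocampal CTL samples stood below both cortical CTL samples for 5 receptors, Htr1b, Htr1f (admitted through cortex alone), Htr5a, Htr2a and Htr7, where 13% of all tested genes did so. They stood above for 4, Htr1a, Htr2c, Htr4 (admitted through hippocampus, where it is high) and Htr3a, where 62.1% did. With TMM scaling, which removes most of that lean, Htr6 joined the lower ones, giving 6 of 10 against 33.4% of genes and 4 of 10 higher against 34.6%. The median log2 fold change of the 10 receptors was -0.64 and that of all genes 0.0016.

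The tamoxifen groups, which share no library with the controls, gave the same sign as the controls for all 10 receptors between the regions, as they did for 73.5% of all tested genes, but no receptor passed, and 1.12% of all genes did. Of the receptors, Htr1f entered the test through cortex and Htr4 through hippocampus, each where it is high, so their signs are no support. The sign of Htr2c turned when 1 sample was left out, with values of -2.89 to 4.06. Htr1f had -3.15 (SE 0.79, edgeR adjusted p = 0.0893) on 6 and 6 counts in hippocampal TAM samples, and since it entered the test through cortex alone, where it is high, its test is no support for a difference. Htr2a had -1.53 (SE 0.48, adjusted p = 0.133), Htr5a -1.45 (SE 0.58, adjusted p = 0.211), Htr4, which reached the filter in 4 hippocampal and 1 cortical sample, 1.55 (SE 0.56, adjusted p = 0.177) and Htr7 -0.40 (SE 0.20, adjusted p = 0.299). The Htr1a value was 0.50 (SE 0.31), Htr1b -0.88 (SE 0.52), Htr6 -0.57 (SE 0.30), Htr3a 0.37 (SE 0.25) and Htr2c 0.60 (SE 1.77). Without cortical TAM sample A, which leaves sample B alone in its group and takes its spread from the others, Htr1f, Htr5a and Htr2a passed (adjusted p = 0.00931, 0.00446 and 0.0168), and without sample B none did. Without sample A 21.7% of all genes were called, so 3 of 10 is near the background. DESeq2 called Htr2a, and also Htr1f, which was admitted through cortex alone, where it called 11.9% of the genes it gave an adjusted p. An unadjusted p under 0.05 was found for 4 of 10 receptors and 21.6% of genes. These 4 include Htr1f and Htr4, each admitted through the region where it is high, so the count is no support for a difference. In CPM, both hippocampal TAM samples lay below both cortical TAM samples for Htr1f (admitted through cortex), Htr2a and Htr7, against 8.63% of genes. They lay above for Htr4 (admitted through hippocampus) and Htr3a, against 29.4%. With TMM scaling Htr6 joined the lower ones, against 24.1%, and Htr1a the higher ones, against 22.4%.

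**Figure D3:**
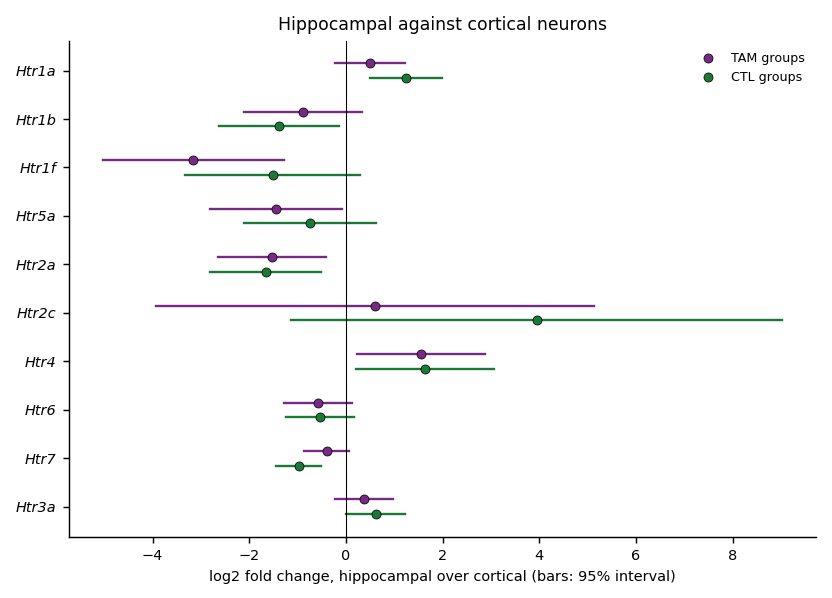
Log2 fold change of each receptor gene, hippocampal over cortical, from edgeR in the TAM groups (upper point of each row) and the CTL groups (lower point). Bars are 95% intervals with 2 samples per group. Values of both comparisons lie on the same side of 0 for every gene, and the bar of Htr2c is the widest.

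Tamoxifen against vehicle in cortex gave no receptor past the test, as it gave no gene at all. The called share was 0% of 18074 genes, 899 genes had an unadjusted p under 0.05, and DESeq2 called 8 genes but none of the receptors. The receptors' log2 fold changes leaned upwards, with a median of 0.79 against 0.039 for all genes, yet this rests on TAM sample B. Htr1a had 0.82 (SE 0.31, 95% interval 0.084 to 1.55, unadjusted p = 0.0336, edgeR adjusted p = 0.83), the smallest p of the 10. Htr1f had 1.02 (SE 0.71), Htr5a 1.02 (SE 0.58), Htr4 0.87 (SE 0.62), Htr2a 0.77 (SE 0.47), Htr2c 1.98 (SE 1.84), Htr1b 0.28 (SE 0.51), Htr3a 0.25 (SE 0.26), Htr6 0.23 (SE 0.30) and Htr7 -0.12 (SE 0.20), with adjusted p of 0.83 to 0.902. The sum of gene rows moved the median gene by 0.21 and with it Htr7 to 0.058. With TMM scaling both TAM samples stood above for the same receptors, Htr1a and Htr3a, against 16.2% of genes, and below for none, against 15%.

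Without TAM sample B the receptors' median was -0.017, and values of the opposite sign were found for Htr1b (-0.57), Htr1f (-0.30), Htr5a (-0.30), Htr4 (-0.088), Htr6 (-0.15) and Htr7 (0.087), while Htr1a had 0.49, Htr3a 0.35 and Htr2a 0.054. Without TAM sample A, Htr5a passed at 1.68 (adjusted p = 0.0208), Htr2c turned to -1.47, and 2014 genes (10.7%) were called. In sample B, Slc17a7 of excitatory neurons had 1084 CPM, against 421 to 443 CPM in cortical TAM A and both cortical CTL samples, 6 inhibitory neuron genes summed to 245 CPM against 96.6 to 113 CPM, and 8 genes of striatal medium spiny neurons to 527 CPM against 170 to 280 CPM. None of these markers was at 0 in any cortical sample, and their part in the receptor values was not tested. In CPM, Htr1a and Htr3a had both TAM samples above both CTL samples, 2 of 10 against 20.8% of genes, and no receptor had both below, against 6.29%.

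In hippocampus no receptor passed either, nor any gene (0%), with 653 unadjusted p under 0.05 and 9 calls in DESeq2, none of them a receptor. Htr7 had the smallest p of the 10, with a log2 fold change of 0.46 (SE 0.20, 95% interval -0.0047 to 0.93, unadjusted p = 0.0518, edgeR adjusted p = 1). Htr2a had 0.90 (SE 0.48), Htr4 0.79 (SE 0.54), Htr1b 0.78 (SE 0.52), Htr5a 0.30 (SE 0.58), Htr6 0.19 (SE 0.30), Htr1a 0.072 (SE 0.30), Htr3a 0.0041 (SE 0.25), Htr1f -0.62 (SE 0.82) and Htr2c -1.36 (SE 1.80), each with an adjusted p of 1. The median was 0.25 for the receptors and -0.0071 for all genes, and 0.098 for the receptors without TAM sample A. The 6 inhibitory neuron genes summed to 107 and 85.6 CPM in TAM against 67.3 and 70.6 CPM in CTL samples, with none at 0, 6 of 6 positive and 0 called (median log2 fold change 0.51), and their part in the receptor values was not tested. Both TAM samples were above both CTL samples for Htr2a, Htr4 and Htr7, 3 of 10 against 14.6% of genes, and below for Htr1f, 1 of 10 against 23.6%. For Htr1f this rests on 6 and 6 counts against 9 and 10, under the filter on low counts in every hippocampal sample. With TMM scaling the same receptors separated, against 21% of genes above and 18.9% below. The Htr2c value was -0.42 without TAM sample A, the sample with 48.3 CPM of choroid plexus transcripts, and -4.92 without TAM sample B.

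The difference between the regions' tamoxifen effects, hippocampal minus cortical, was called for no receptor and no gene (0%), with 981 unadjusted p under 0.05. DESeq2 made 9 calls but gave an adjusted p to 904 genes and 0 of the 10 receptors, so it could call none of them here. The smallest p among the receptors was that of Htr7 at 0.58 (SE 0.28, 95% interval -0.082 to 1.24, edgeR adjusted p = 0.889). Htr1a had -0.75 (SE 0.43), Htr1f -1.64 (SE 1.09) and Htr2c -3.34 (SE 2.57, 95% interval -9.90 to 3.22). With intervals of this width, differences of several-fold in either direction were not detectable for Htr2c and Htr1f.

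**Figure D4:**
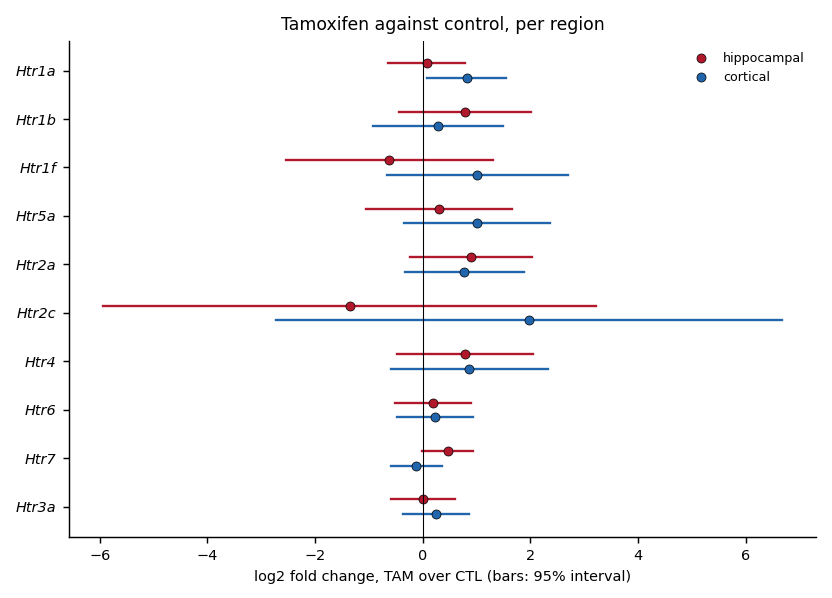
Log2 fold change of each receptor gene, TAM over CTL, from edgeR in hippocampal (upper point of each row) and cortical (lower point) samples, with 95% intervals and 2 samples per group. Of the 20 intervals, only that of Htr1a in cortex leaves out 0, and none of the values passes after adjustment over all genes.

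Summed over the 9 receptors other than Htr2c, the family's level was 6.94 and 5.96 CPM per kb in hippocampal TAM, 5.64 and 5.53 in hippocampal CTL, 5.07 and 9.64 in cortical TAM and 4.78 and 5.28 in cortical CTL samples. Cortical TAM sample B was thus the highest, and the others lay within a narrow range. In its makeup, cortical TAM sample B lay among or above the hippocampal samples for the Gs-coupled and Gi-coupled shares. For the Gq-coupled and channel shares it lay outside their range. The other 3 cortical samples lay apart from the hippocampal samples in each of these shares. Receptors coupled to Gs gave 39.6 and 44.7% of the summed level in hippocampal TAM and 38.5 and 38.4% in hippocampal CTL, against 54.0 and 40.1% in cortical TAM and 54.1 and 57.3% in cortical CTL samples. The channel gene Htr3a gave 18.4 and 20.8% in hippocampal TAM, 27.5 and 18.6% in hippocampal CTL, 15.7 and 9.78% in cortical TAM and 14.4 and 11.3% in cortical CTL samples. The Gi-coupled share was 38.3 and 31.7% in hippocampal TAM, 32.3 and 40.5% in hippocampal CTL, 24.8 and 41.0% in cortical TAM and 24.8 and 26.7% in cortical CTL samples. Shares of a sum move against each other, and they were not tested.

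**Figure D5:**
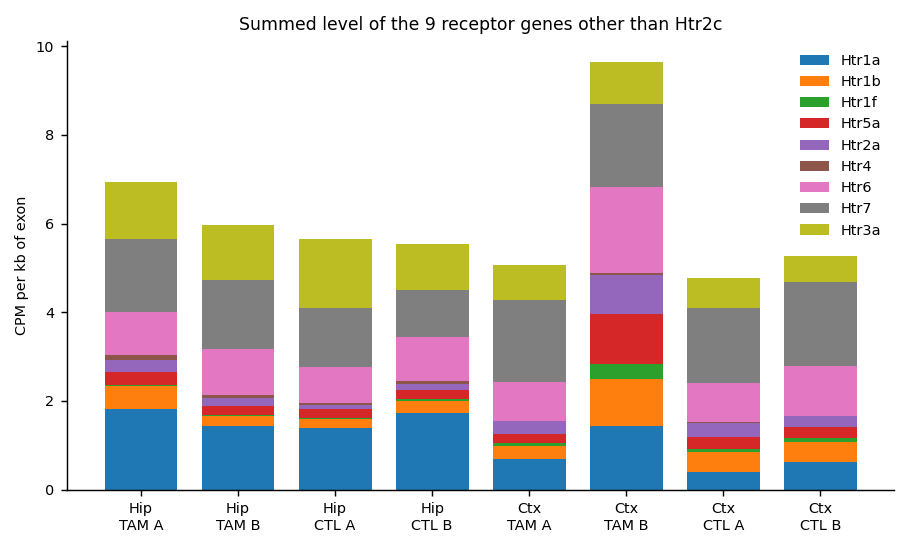
Level of the 9 receptor genes other than Htr2c in each of the 8 samples, as CPM per kb of exon, stacked by gene. Cortical TAM B reaches 9.64 CPM per kb and the other 7 samples lie between 4.78 and 6.94. Htr7 and Htr6 fill more of the cortical CTL bars than of the hippocampal CTL bars, and Htr1a less.

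Of the 4 other serotonin receptor genes in the files, Htr1d and Htr5b could be tested and both passed between the control groups, in opposite directions, where 6.19% of all genes did. Htr1d reached the filter on low counts in 4 cortical and 0 hippocampal samples and Htr5b in 4 hippocampal and 1 cortical sample, so each entered the test through the region where it is high, and the calls support nothing beyond their values. Htr1d, a close relative of Htr1b, had 0.0380 and 0.0185 CPM in hippocampal TAM, 0.0191 and 0.0185 CPM in hippocampal CTL, 0.215 and 1.05 CPM in cortical TAM and 0.401 and 0.272 CPM in cortical CTL samples. The log2 fold change between the controls, -4.45 with an SE of 0.83 (edgeR adjusted p = 0.0357), rests on 2 and 2 counts in hippocampal CTL against 39 and 23 in cortical CTL samples. Htr5b, the second Htr5 gene of the mouse, had 0.571 and 0.342 CPM in hippocampal TAM, 0.353 and 0.554 CPM in hippocampal CTL, 0.0479 and 0.110 CPM in cortical TAM and 0.0103 and 0.0236 CPM in cortical CTL samples, a log2 fold change of 4.31 between the controls (SE 0.69, adjusted p = 0.0292) on 37 and 60 against 1 and 2 counts. Over 8 leave-outs of 1 sample the adjusted p ran from 0.00582 to 0.224 for Htr1d, called in 2, and from 0.00908 to 0.224 for Htr5b, called in 4, and the log2 fold change from -4.68 to -4.17 and from 3.81 to 4.98. Htr3b, the partner subunit of Htr3a, had 0 counts in all 8 samples, and Htr2b had 0 to 6.

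Downstream of the receptors, 4 of 18 G protein and effector genes were lower in hippocampal CTL than in cortical CTL samples and none was higher, against 3.48 and 2.71% of all genes. They were Adcy5 (-1.02, SE 0.15), an adenylyl cyclase, Gnal (-1.12, SE 0.18), a Gs-type alpha subunit, Gnao1 (-0.71, SE 0.14), the Go alpha subunit, and Gnaq (-0.59, SE 0.13), the alpha subunit that Htr2 receptors use, with edgeR adjusted p of 0.0243 to 0.0495. The list's median was -0.41 against 0.0016 for all genes. Adcy5 and Gnal are known to be abundant in striatum, and the striatal list summed to 176 and 115 CPM in hippocampal CTL against 280 and 186 CPM in cortical CTL samples, with no marker at 0. Its 8 tested genes had a median log2 fold change of -2.64 between these groups, with 1 positive. The part of the striatal list was not tested. Of 12 partner, trafficking and editing genes, Arrb1 (-0.91, SE 0.15), an arrestin, and Adarb1 (-0.93, SE 0.18), an enzyme that edits Htr2c transcripts, were lower and none was higher. Each of these 6 calls was lost in 4 to 6 of the 8 leave-outs, with adjusted p of up to 0.309, and on the sum of gene rows (0.100 to 0.578).

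Among 11 genes of serotonin synthesis, transport and breakdown, 8 were tested and none was called in any contrast. Tph2, the enzyme that makes serotonin in raphe neurons, stood at 0.185 to 0.582 CPM, and Slc6a4, the serotonin transporter, at 2 to 7 counts per sample. In the tamoxifen contrasts none of the 3 lists held a called gene, where the called share was 0% of all genes.

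Of the receptors that varied by a standard deviation over 0.5 in log2 units across the 8 samples, Htr5a, Htr2a and Htr1b were highest in cortical TAM sample B, and their closest followers were sought among 12682 genes. For Htr5a these were Rundc3b (root mean square difference 0.07), Caly (0.09) and Sidt1 (0.09), and for Htr2a they were Prrg3 (0.09), Gria3 (0.10) and Tceal6 (0.10). Htr1b was followed most closely by Shisa9 (0.12), Galnt13 (0.13) and Kcnc1 (0.15). Htr1a, which was highest in hippocampal TAM sample A, was followed by AW551984 (0.16), Gabra5 (0.17) and Cpne6 (0.18). This likeness rests on 8 samples that share 4 groups and 1 sample that stands apart, and it is a description.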

How the data were processed

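Reads were aligned with STAR to mm10 and counted per gene with HTSeq, per the submitters' processing notes, which give no versions. The deposited counts are whole numbers, not normalized, for 39179 genes in each of 16 libraries. The deposited RPKM, per the file headers, equals the count over exon length and library total (100% of values matched when recomputed) and was not used further. The 8 neighbouring library pairs differed beyond counting error by a coefficient of variation of 1.79 to 2.98%, against 5.26 to 23.5% in the 16 other pairs within groups. Neighbours were therefore summed, from the values and not from the labels, so each p-value rests on the spread between such samples only, which may be technical.

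Genes were filtered with filterByExpr (minimum count 10, here 0.0978 CPM in 2 samples), which left 18074 and kept all 10 receptors. They were scaled by TMM and fitted with 1 mean per group in edgeR 4.0.16 under R 4.3.3 (robust quasi-likelihood test, checked on simulated data). The Benjamini-Hochberg adjustment ran over the 18074 genes of each contrast, and an adjusted p under 0.05 counted as a call. SE is the log2 fold change over the square root of F, for 2 samples per group. Alternatives were RLE and gene-row scaling, no filter, DESeq2 1.42.0, 16 separate libraries, limma 3.58.1 voom with correlated pairs, a replicate block and leaving out each sample. After seeing the data, 2 more were added: leaving out both samples that stand apart, and a crossed block. All 10 receptors are named in every contrast, with other pathway genes where called. The receptors, lists and alternatives were chosen with earlier results of these data known. Likeness was the root mean square difference of centred log2(CPM + 0.5), with CPM here on TMM library sizes, as for the standard deviations. It was sought among 12682 genes with a mean of at least 1 CPM on that scale. The 10 receptors and genes with Gm, Rik or mt- names were left out. Start regions are RefSeq's. They were taken for receptors outside chromosome 18, which left out Htr4, and Htr3a had no entry, so 8 receptors remained.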

Additional observations from a re-analysis of the deposited data

How the results depend on the processing

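The signs of all receptors between the regions held under every alternative, apart from Htr2c between the tamoxifen groups (-2.89 to 4.06 when 1 sample was left out). Every alternative drew on the same libraries. The signs of Htr1f and Htr4 are no support, since each was admitted through the region where it is high. The cortical tamoxifen values did not hold. Leaving out 1 sample at a time gave ranges of -0.57 to 0.81 for Htr1b, -0.30 to 1.71 for Htr1f, -0.30 to 1.68 for Htr5a, -1.47 to 2.91 for Htr2c, -0.0877 to 1.38 for Htr4, -0.15 to 0.53 for Htr6 and -0.35 to 0.0869 for Htr7. In hippocampus the ranges that crossed 0 were -0.11 to 0.28 for Htr1a and -0.23 to 0.28 for Htr3a. For the difference of the tamoxifen effects they were -0.12 to 1.36 for Htr1b, -1.38 to 0.60 for Htr5a, -0.34 to 0.84 for Htr2a, -6.88 to 0.11 for Htr2c, -0.59 to 0.88 for Htr4, -0.33 to 0.34 for Htr6 and -0.48 to 0.0395 for Htr3a. Receptors called in the leave-outs numbered 0 to 1 for cortical tamoxifen, 0 to 4 between controls and 0 to 3 between tamoxifen groups, and genes called 0 to 2014, 0 to 3915 and 0 to 4092.

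With both samples that stand apart left out, cortical values were -0.57 for Htr1b, -0.29 for Htr1f, -0.30 for Htr5a, -0.0864 for Htr4, -0.15 for Htr6 and 0.089 for Htr7. The hippocampal value was -0.0732 for Htr1a, and the difference 0.33 for Htr5a, 0.65 for Htr4 and 0.43 for Htr6. It called 3 genes for cortical tamoxifen, 4783 between controls (with 4 receptors) and 333 between tamoxifen groups. Gene-row scaling turned Htr7 in cortex to 0.0576, Htr3a in hippocampus to -0.0361 and the difference of Htr2a to -0.18, and called 2064 and 26 genes between the control and between the tamoxifen groups. Without the filter 1 gene was called for cortical tamoxifen, 536 between tamoxifen groups, and 2 receptors with 1336 genes (4.97%) between controls.

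For cortical tamoxifen, hippocampal tamoxifen, their difference, the controls and the tamoxifen groups in turn, DESeq2 called 8, 9, 9, 3193 and 1946 genes, with 4 and 2 receptors in the last pair. Limma voom with correlated pairs called 16, 9, 106, 3423 and 2837 genes and 3 receptors between controls, and gave 0.16 for the difference of Htr4. The 16 libraries taken separately gave 562, 318, 867, 6982 and 5510 genes, 8 and 5 receptors, and -0.000824 for Htr3a in hippocampus. That fit treats neighbouring libraries as replicates, which makes its p-values too small where neighbours are repeats of 1 sample.

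The letters A and B are not from the labels, and whether samples are paired across groups is not known. Over genes, the differences of A from B in 2 groups correlated with r = 0.28 in cortex and -0.24 in hippocampus. Between the control groups r was 0.26. Hippocampal TAM gave -0.41 with cortical TAM and -0.39 with cortical CTL, and hippocampal CTL gave 0.015 with cortical TAM. With a replicate block 72 genes and 0 receptors were called between controls and 0 genes between tamoxifen groups, and the difference of Htr4 was 0.0318. With the block crossed, by swapping the hippocampal TAM letters, these counts were 2036, 2 and 121, and the differences of Htr4 and Htr6 were 0.0406 and 0.00878.

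The cause of each such change was not tested. Depth limits Htr1f and Htr4, with as few as 6 and 5 counts in a sample. For Htr2c the spread between samples, not depth, sets the width of its intervals.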
